A study of Mus musculus with 16 samples.

Results

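The adrenomedullin and calcitonin receptor system was followed in hearts of mouse embryos by RNA sequencing. The 7 genes are the ligands Adm (gene ID 11535) and Adm2 (223780), the receptors Calcrl (54598) and Calcr (12311), and the receptor activity modifying proteins Ramp1 (51801), Ramp2 (54409) and Ramp3 (56089). They are 7 of the 27179 gene IDs of the deposited table. They were chosen by their role, and because Adm2 and Calcr had been seen to change in these hearts. The values of Adm2 and Calcr are therefore a description: intervals and calls printed for these genes show size and spread and are no test of their change. All 7 passed the filter on low counts, which left 15785 genes.

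The hearts were taken at embryonic day 10.5 from 16 embryos, with 4 embryos of each of 4 genotypes. Ing4+/- Ing5-/- hearts had lost 1 Ing4 allele and both Ing5 alleles, Ing4+/- hearts 1 Ing4 allele, and Ing5-/- hearts both Ing5 alleles. Wild-type hearts had all 4 alleles of the pair. The proteins encoded by Ing4 and Ing5 are relatives that read a methyl mark on histone H3 and guide histone acetyltransferases to chromatin. How the alleles were made, which parts they lack, and the strain and sex of the embryos were not given in the labels.

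Calcrl and Calcr are class B receptors that signal mainly through Gs and cyclic AMP. Calcrl reaches the cell surface with a Ramp protein, and the partner sets the ligand: with Ramp1 it forms the receptor for calcitonin gene-related peptide, and with Ramp2 or Ramp3 the receptors for adrenomedullin, the product of Adm. Adm2, also called intermedin, is a related peptide that acts on the Calcrl and Ramp complexes. Calcr alone is the calcitonin receptor, and with a Ramp protein it binds amylin. Mouse embryos without Adm, Calcrl or Ramp2 die at mid-gestation with oedema and defects of vessels and heart. Adm is also a known target of the hypoxia-inducible factors, which bind DNA at the core letters ACGTG or GCGTG.

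Promoter sequences are shown for Adm, the ligand known for that control, and for Adm2 and Calcr, whose values were the reason for the choice of genes. They are the RefSeq sequences of mouse build GRCm38.p6 that run over 250 bases before and 50 bases after a gene start, 5′ to 3′ on the strand of the gene. The table held such windows for 6 of the 7 genes, all except Ramp2. Capitals mark the letters ACGTG or GCGTG on either strand, so that GCGTG on the other strand reads CACGC. The windows were chr7:110627407-110627706 on the plus strand for Adm and chr15:89322470-89322769 on the plus strand for Adm2. Calcr had windows at 2 starts, chr6:3764664-3764963 and chr6:3763574-3763873, both on the minus strand.
Adm: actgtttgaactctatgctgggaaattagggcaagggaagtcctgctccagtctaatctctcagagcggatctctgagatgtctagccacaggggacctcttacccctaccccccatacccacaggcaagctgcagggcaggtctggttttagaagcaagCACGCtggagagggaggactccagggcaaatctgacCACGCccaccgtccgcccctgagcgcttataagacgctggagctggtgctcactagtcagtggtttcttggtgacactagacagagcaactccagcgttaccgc
Adm2: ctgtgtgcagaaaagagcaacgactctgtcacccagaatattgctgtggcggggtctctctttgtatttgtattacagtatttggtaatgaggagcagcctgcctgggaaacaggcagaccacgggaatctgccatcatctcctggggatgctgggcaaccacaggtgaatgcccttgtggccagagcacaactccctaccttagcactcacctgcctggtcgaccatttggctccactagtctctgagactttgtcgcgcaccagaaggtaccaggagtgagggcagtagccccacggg
Calcr, upstream start: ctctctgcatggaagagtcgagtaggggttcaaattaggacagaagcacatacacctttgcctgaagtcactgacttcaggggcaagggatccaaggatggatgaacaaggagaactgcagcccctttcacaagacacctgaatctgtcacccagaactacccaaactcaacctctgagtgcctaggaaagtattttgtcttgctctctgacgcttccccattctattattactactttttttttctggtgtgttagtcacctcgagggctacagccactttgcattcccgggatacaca
Calcr, downstream start: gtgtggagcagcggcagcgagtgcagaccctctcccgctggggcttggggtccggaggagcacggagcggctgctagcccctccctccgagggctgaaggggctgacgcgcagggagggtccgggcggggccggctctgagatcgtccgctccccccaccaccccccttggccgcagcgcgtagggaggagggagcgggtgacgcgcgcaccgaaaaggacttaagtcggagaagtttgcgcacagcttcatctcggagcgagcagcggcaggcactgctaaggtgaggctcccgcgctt
The Adm window held 2 matches, which began 90 and 54 bases before the start, while the Adm2 window and both Calcr windows held 0. Among the other windows Ramp3 held 2 matches, Calcrl 1 and Ramp1 0. Of all 32851 windows of this length, 19.6% held ACGTG, 32.4% held GCGTG and 43.8% held either, so a match was common. The matches are letters in a window and do not show binding.

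The libraries held 19753100 to 35664331 counted reads, and the hearts came from 7 litters, none of which held both an Ing5-/- and a wild-type heart. Ing5 stood at 19.2 to 25.1 read counts scaled to library size (CPM) in Ing4+/- Ing5-/- hearts, 33.7 to 42.3 in Ing4+/-, 18.5 to 29.3 in Ing5-/- and 28.9 to 36.9 in wild-type hearts, so 1 Ing5-/- heart lay within the wild-type range. Ing4 stood at 32.5 to 36.2, 32.0 to 36.3, 43.5 to 60.7 and 28.2 to 44.4 CPM in the same order of genotypes. Heart muscle markers such as Tnnt2 and Myh7 were abundant in every heart. The summed level of 6 such genes was 22167 to 25337 CPM in Ing4+/- Ing5-/- hearts, 21523 to 23115 in Ing4+/- and 24364 to 26042 in wild-type hearts. It was 14115 CPM in Ing5-/- 1 and 22994 to 26311 CPM in the other Ing5-/- hearts. Every Ing4+/- heart thus lay below every wild-type heart. On the first 3 principal components the farthest hearts were Ing4+/- 4, Ing5-/- 1 and Ing4+/- Ing5-/- 2, and the fold changes of Adm2 and Calcr and the counts of the hypoxia and macrophage lists are given with and without them. In whole hearts, fewer cells of a type and less RNA per cell cannot be told apart.

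Ramp2 was the most abundant of the 7 genes per unit of length. On the RPKM scale, which is CPM divided by gene length in kilobases, it averaged 96.0 ± 12.4 (SD), over the 16 hearts, above Calcrl at 14.1 ± 2.28. Adm at 7.58 ± 2.32 and Ramp1 at 6.39 ± 0.900 followed, and their ranges overlapped. Adm2 at 1.32 ± 1.09, Calcr at 0.884 ± 0.505 and Ramp3 at 0.576 ± 0.172 were the lowest, and these neighbours did not differ beyond their spread. Read numbers set the precision: Ramp2 had 1610 to 3009 reads in a heart, Calcrl 1401 to 2545, Ramp1 333 to 742 and Adm 105 to 474. Calcr had 23 to 222 reads, Adm2 8 to 121 and Ramp3 9 to 31, so that single-heart values of these 3 genes carry a large counting error.

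**Figure D1:**
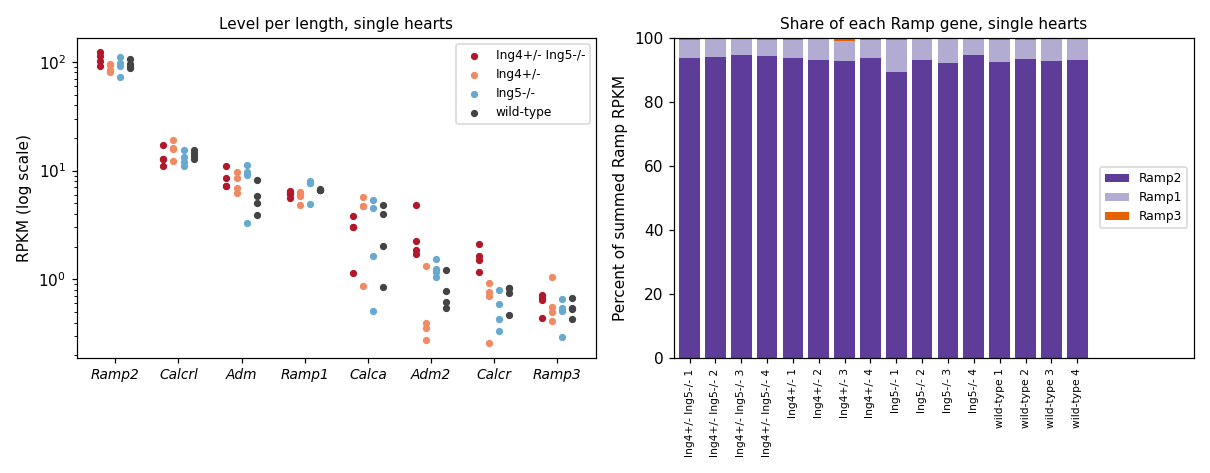
Left, level of each gene of the system in RPKM on a log axis, with a point for each of the 16 hearts. Right, share of Ramp1, Ramp2 and Ramp3 in their summed RPKM in each heart, in percent. Ramp2 lies above all other genes and holds 89.4 to 94.8% of the summed Ramp level in every heart.

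Ramp2 made up 93.8 to 94.5% of the summed RPKM of the Ramp genes in Ing4+/- Ing5-/- hearts, 92.8 to 93.8% in Ing4+/-, 89.4 to 94.8% in Ing5-/- and 92.5 to 93.4% in wild-type hearts. The share was thus high in every genotype. Ramp2 exceeded Calcrl in RPKM by 8.10 ± 1.49 times in Ing4+/- Ing5-/- hearts, 5.78 ± 1.48 in Ing4+/-, 7.30 ± 1.31 in Ing5-/- and 6.79 ± 0.817 in wild-type hearts (SD, n = 4 each). These ranges overlapped. For the balance of the receptors, Calcrl exceeded Calcr by 6.02 to 11.4 times in Ing4+/- Ing5-/- hearts and by 17.6 to 73.1 times in Ing4+/- hearts. It did so by 19.2 to 35.3 times in Ing5-/- hearts and by 16.9 to 28.5 times in wild-type hearts. The ranges of the other genotypes overlapped each other, and only Ing4+/- Ing5-/- hearts lay apart. That gap follows from Calcr, one of the genes chosen for its change.

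Adm2 (chromosome 15: 89322720 to 89324731, GRCm38) had 2.37, 5.02, 1.78 and 1.96 CPM in Ing4+/- Ing5-/- hearts 1 to 4. It had 0.414, 0.289, 0.375 and 1.39 CPM in Ing4+/- hearts, 1.11, 1.31, 1.23 and 1.61 CPM in Ing5-/- hearts, and 0.649, 1.28, 0.569 and 0.815 CPM in wild-type hearts. The 4 Ing4+/- Ing5-/- hearts thus lay above all 12 others, by a narrow margin over the highest Ing5-/- heart. The highest value belonged to Ing4+/- Ing5-/- heart 2, and the other 3 hearts of that genotype also lay above the 12. Of all genes tested, 61 (0.386%) lay above all 12 other hearts in this genotype.

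The fitted fold of Adm2 was 3.32 (95% interval 1.73 to 6.38) for Ing4+/- Ing5-/- against wild-type hearts, 4.54 (2.32 to 8.87) against Ing4+/- hearts and 2.11 against Ing5-/- hearts. On the log2 scale these were 1.73 ± 0.45, 2.18 ± 0.46 and 1.08 ± 0.43 (SE). For Ing5-/- against wild-type hearts the log2 fold change was 0.65 ± 0.45, and for Ing4+/- against wild-type hearts -0.45 ± 0.48. The comparisons share hearts and are not independent of each other. At an adjusted p under 0.05 in edgeR, 1 of the 7 genes, Adm2, was called for Ing4+/- Ing5-/- against Ing4+/- hearts (1.16% of all genes tested), and that call was lost with litter as a block (log2 fold change 2.17). For Ing4+/- Ing5-/- against wild-type hearts 0 of the 7 were called (0.855% of all genes tested). Since Adm2 was chosen for its change, nothing is read from these calls. Without Ing4+/- Ing5-/- heart 2, the log2 fold change of Adm2 against Ing4+/- hearts was 1.73 and was not called, and against wild-type hearts it was 1.29. Without all 3 hearts that stood apart, the values were 1.28 against wild-type, 2.49 against Ing4+/- and 0.55 against Ing5-/- hearts.

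Within litters, the log2 difference of Adm2 between Ing4+/- Ing5-/- and wild-type hearts was 2.81 in litter 4 and 1.06 in litter 6. Between Ing4+/- Ing5-/- and Ing4+/- hearts it was 3.80 in litter 4, 2.05 in litter 6 and 0.47 in litter 7. Between Ing4+/- Ing5-/- and Ing5-/- hearts it was 0.94 in litter 1 and 0.28 in litter 7. Each difference was above 0, which follows from the place of the Ing4+/- Ing5-/- hearts above all others and is no support. Hearts of litters 4, 6 and 7 enter more than 1 of these comparisons, and the size varied widely.

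Adm (chromosome 7: 110627657 to 110629820), which overlaps the predicted gene Gm28863, had 15.1, 9.96, 9.96 and 11.9 CPM in Ing4+/- Ing5-/- hearts. It had 13.3, 11.7, 8.62 and 9.58 CPM in Ing4+/- hearts, 15.4, 4.59, 13.3 and 12.5 CPM in Ing5-/- hearts, and 6.91, 8.11, 11.3 and 5.35 CPM in wild-type hearts. Each mutant genotype had a higher mean than wild type, and each overlapped it. For Ing4+/- Ing5-/- and Ing4+/- hearts the overlap came from a single wild-type heart, the third, at 11.3 CPM. In the Ing5-/- group, heart 2 at 4.59 CPM also lay below every wild-type heart. The log2 fold change against wild-type hearts was 0.56 ± 0.30 (95% interval -0.08 to 1.20, edgeR adjusted p = 0.514) in Ing4+/- Ing5-/- hearts, 0.44 ± 0.30 (0.963) in Ing4+/- hearts and 0.52 ± 0.30 (0.589) in Ing5-/- hearts. None was called, and the first interval still includes a rise of more than 2-fold. Between Ing4+/- Ing5-/- and Ing4+/- hearts the log2 fold change was 0.12 ± 0.30 (adjusted p = 0.900). The RPKM of Adm exceeded that of Adm2 by 3.78 ± 1.54 times in Ing4+/- Ing5-/- hearts, 19.4 ± 10.9 in Ing4+/-, 6.82 ± 3.37 in Ing5-/- and 8.22 ± 4.79 in wild-type hearts.

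Of the other ligands of the family, Calca, which encodes calcitonin and calcitonin gene-related peptide, was the only one of 3 that passed the filter on low counts. It had 1.70 to 5.73 CPM in Ing4+/- Ing5-/- hearts, 1.29 to 8.50 in Ing4+/-, 0.765 to 7.95 in Ing5-/- and 1.28 to 7.14 in wild-type hearts. Its log2 fold change was -0.07 ± 0.73 against wild-type hearts (edgeR adjusted p = 0.982). Calcb had 0 to 2 reads in a heart and Iapp, which encodes amylin, had 0.

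Calcr (chromosome 6: 3685678 to 3764713) had 4.47, 6.31, 8.25 and 5.84 CPM in Ing4+/- Ing5-/- hearts. It had 3.57, 2.93, 2.71 and 1.00 CPM in Ing4+/- hearts, 1.66, 1.31, 2.30 and 3.10 CPM in Ing5-/- hearts, and 3.25, 1.83, 2.92 and 3.21 CPM in wild-type hearts. The 4 Ing4+/- Ing5-/- hearts lay above all 12 others, and the other 3 genotypes overlapped each other. Group means were 6.22 ± 1.56, 2.55 ± 1.10, 2.09 ± 0.788 and 2.80 ± 0.664 CPM for Ing4+/- Ing5-/-, Ing4+/-, Ing5-/- and wild-type hearts (SD, n = 4 each).

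The fitted fold of Calcr in Ing4+/- Ing5-/- hearts was 2.23 (95% interval 1.40 to 3.55) against wild-type, 2.42 (1.52 to 3.86) against Ing4+/- and 2.96 (1.85 to 4.74) against Ing5-/- hearts. As a description, Calcr was called in none of the 6 comparisons of the main edgeR fit. DESeq2, which called more genes (325, 486 and 19 of 15784 against wild-type, Ing4+/- and Ing5-/- hearts), called Calcr in each of these 3. Without the 3 hearts that stood apart, its log2 fold changes were 1.15 against wild-type, 1.01 against Ing4+/- and 1.46 against Ing5-/- hearts. In Ing5-/- and in Ing4+/- hearts against wild type its log2 fold changes were -0.41 ± 0.33 and -0.12 ± 0.33. The fitted interaction, the part of the log2 change in Ing4+/- Ing5-/- hearts beyond the sum of the Ing4+/- and Ing5-/- changes, was 1.69 ± 0.46 for Calcr and 1.53 ± 0.65 for Adm2. Within litters, Calcr differed by 0.94 and 1.34 (log2) between Ing4+/- Ing5-/- and wild-type hearts, by 1.09, 1.58 and 2.46 against Ing4+/- hearts and by 1.55 and 0.90 against Ing5-/- hearts.

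**Figure D2:**
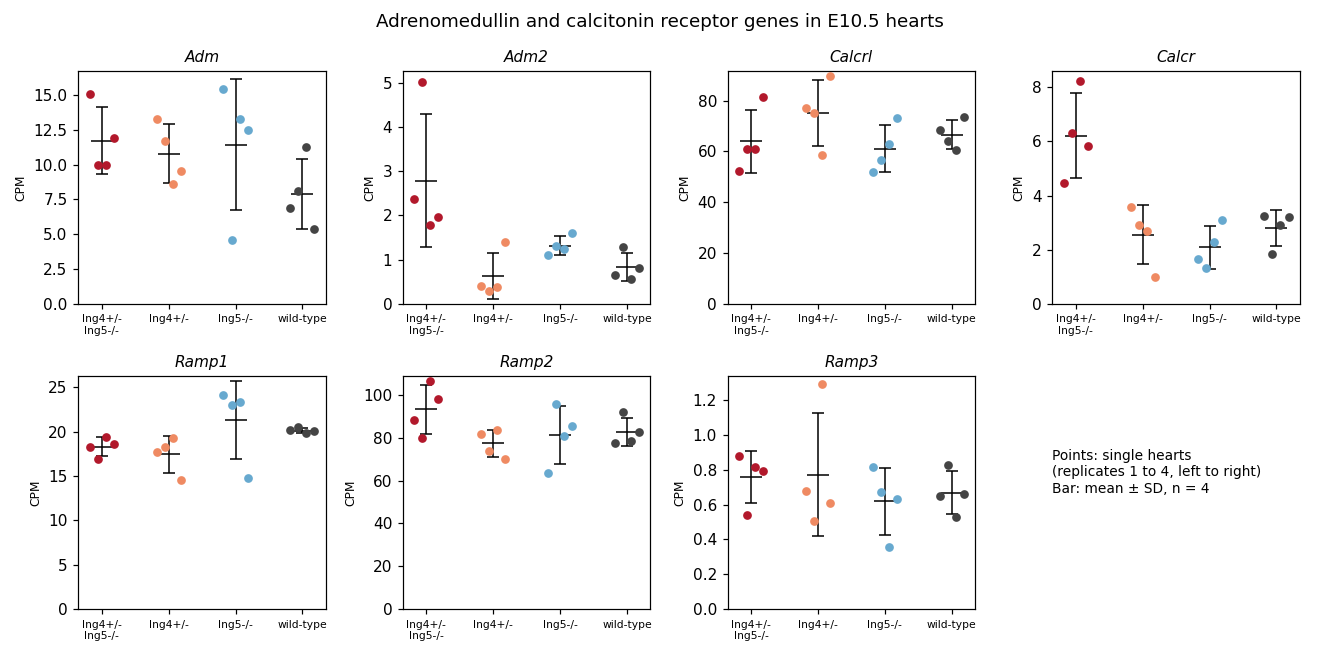
Level of each of the 7 genes in CPM by genotype, with a point for each heart and the mean with SD (n = 4 hearts each). For Adm2 and Calcr the 4 Ing4+/- Ing5-/- hearts lie above the other 12, while for the other 5 genes the genotypes overlap, except that Ramp1 is lower than in every wild-type heart in Ing4+/- Ing5-/- and Ing4+/- hearts.

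Markers of other cells in the hearts were read beside these values. The lists were chosen with earlier results of these data known, so their counts are a description. The summed level of 8 macrophage genes was 36.2 to 53.0 CPM in Ing4+/- Ing5-/- hearts, 13.5 to 18.9 in Ing4+/-, 16.9 to 45.9 in Ing5-/- and 9.68 to 15.3 in wild-type hearts. Of these 8 genes, 6 rose in Ing4+/- Ing5-/- hearts against wild-type hearts and 2 against Ing4+/- hearts. With litter as a block 1 and 3 were called, and 5 and 1 without the 3 hearts that stood apart. Of all 15785 genes, 135 and 183 were called in the main fit, and 1793 and 2196 passed an unadjusted p under 0.05. DESeq2 called 325 and 486 of 15784. The numbers called in edgeR were 15 and 78 with litter as a block, and 313 and 200 without the 3 hearts. C1qa and C1qb were at 0 in at least 1 heart. The summed level of 10 endothelial genes overlapped between genotypes, at 1076 to 1451, 1129 to 1226, 944 to 1222 and 1124 to 1294 CPM in Ing4+/- Ing5-/-, Ing4+/-, Ing5-/- and wild-type hearts, and 0 of 10 was called in Ing4+/- Ing5-/- hearts against wild-type or Ing4+/- hearts (edgeR; 3 and 5 at an unadjusted p under 0.05, and DESeq2 called Egfl7 in both). The summed level of 6 epicardial genes was 289 to 383 CPM in Ing4+/- Ing5-/- hearts, 351 to 542 in Ing4+/-, 296 to 494 in 3 Ing5-/- hearts with 1106 in Ing5-/- 1, and 449 to 491 in wild-type hearts. It lay below every wild-type heart in Ing4+/- Ing5-/- hearts, with 0 of 6 genes called (edgeR, and 0 at an unadjusted p under 0.05, 0 in DESeq2). The summed level of 5 neural and neural crest genes was 13.4 to 17.6 CPM in Ing4+/- Ing5-/- hearts, 19.6 to 22.6 in Ing4+/-, 17.1 to 29.9 in Ing5-/- and 19.7 to 28.3 in wild-type hearts. It was thus below every Ing4+/- and wild-type heart, with Foxd3 at 0 in each Ing4+/- Ing5-/- heart. Of its 3 tested genes 0 was called against either (edgeR; 1 at an unadjusted p under 0.05 in each, and DESeq2 called Tubb3 lower against wild type).

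Blood cell genes varied widely within genotypes: the summed level of 6 was 5637 to 35035 CPM in Ing4+/- Ing5-/-, 3640 to 14209 in Ing4+/-, 3935 to 24565 in Ing5-/- and 6444 to 8627 in wild-type hearts. All genotypes overlapped and 0 of 6 was called in Ing4+/- Ing5-/- hearts against wild-type or Ing4+/- hearts (edgeR, with 0 at an unadjusted p under 0.05, and 0 in DESeq2). The highest value, 35035 CPM, was that of Ing4+/- Ing5-/- heart 2, and the other 3 hearts of that genotype had 5637 to 13271 CPM. The sums of lymphatic, smooth muscle and foregut markers overlapped between all genotypes. The part of all these cells in the Adm2 and Calcr values was not tested.

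Calcrl (chromosome 2: 84330626 to 84425405), the receptor shared by the adrenomedullin and calcitonin gene-related peptides, had 52.2, 61.1, 60.9 and 81.4 CPM in Ing4+/- Ing5-/- hearts. It had 77.1, 74.9, 58.4 and 89.8 CPM in Ing4+/- hearts, 51.9, 56.5, 62.8 and 73.0 CPM in Ing5-/- hearts, and 68.3, 64.0, 60.6 and 73.6 CPM in wild-type hearts. All genotypes overlapped. The log2 fold change of Ing4+/- Ing5-/- against wild-type hearts was -0.06 ± 0.14 (95% interval -0.35 to 0.23, edgeR adjusted p = 0.917), and against Ing4+/- hearts -0.23 ± 0.14 (-0.53 to 0.06, 0.483). It was -0.12 ± 0.14 (0.797) in Ing5-/- and 0.17 ± 0.14 (0.963) in Ing4+/- against wild-type hearts.

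Ramp2 (chromosome 11: 101246334 to 101248250) had 88.4, 80.1, 106.6 and 98.0 CPM in Ing4+/- Ing5-/- hearts, 81.7, 73.7, 83.7 and 70.1 CPM in Ing4+/- hearts, 63.6, 95.9, 80.6 and 85.3 CPM in Ing5-/- hearts and 77.3, 92.1, 78.7 and 82.8 CPM in wild-type hearts. The Ing4+/- Ing5-/- hearts overlapped each other genotype. The log2 fold change of Ing4+/- Ing5-/- against Ing4+/- hearts was 0.27 ± 0.11 (95% interval 0.05 to 0.50), with an edgeR p of 0.0205 and an edgeR adjusted p of 0.256. Against wild-type hearts it was 0.17 ± 0.11 (edgeR adjusted p = 0.582). Within litters 4, 6 and 7 the Ing4+/- Ing5-/- heart exceeded the Ing4+/- heart by 0.12, 0.35 and 0.48 (log2).

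Ramp1 (chromosome 1: 91179822 to 91225196) lies 2.58 Mb from Ing5, on the same chromosome. It had 18.2, 16.9, 19.4 and 18.6 CPM in Ing4+/- Ing5-/- hearts, 17.7, 18.2, 19.3 and 14.5 CPM in Ing4+/- hearts, 24.1, 23.0, 23.4 and 14.8 CPM in Ing5-/- hearts and 20.1, 20.5, 19.8 and 20.0 CPM in wild-type hearts. All 4 Ing4+/- Ing5-/- hearts and all 4 Ing4+/- hearts lay below the wild-type hearts, whose spread was small. The log2 fold changes were -0.14 ± 0.13 (edgeR adjusted p = 0.748) and -0.20 ± 0.13 (0.963), so neither was called. In Ing5-/- hearts against wild type it was 0.08 ± 0.13 (0.857), and 3 of the 4 hearts lay above the wild-type range. The linkage to Ing5 was not tested as a source of these values.

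Ramp3 (chromosome 11: 6658506 to 6677478), which overlaps the predicted gene Gm11978, had 0.540 to 0.881 CPM in Ing4+/- Ing5-/- hearts, 0.506 to 1.29 in Ing4+/-, 0.357 to 0.813 in Ing5-/- and 0.531 to 0.828 in wild-type hearts. The genotypes overlapped throughout. Its log2 fold change of 0.18 ± 0.40 for Ing4+/- Ing5-/- against wild-type hearts had a 95% interval of -0.66 to 1.03 (edgeR adjusted p = 0.911). That interval includes a 1.5-fold change in either direction.

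Taking both directions, 3 of the 7 genes did not overlap between Ing4+/- Ing5-/- and wild-type hearts, Adm2, Calcr and Ramp1, where 10.2% of all genes tested did not. Between Ing4+/- Ing5-/- and Ing4+/- hearts 2 of 7 did not overlap, Adm2 and Calcr (10.1% of all genes), and the same 2 genes did not between Ing4+/- Ing5-/- and Ing5-/- hearts (3.0%). Ramp1 was the 1 of 7 between Ing4+/- and wild-type hearts (3.78%), and between Ing5-/- and wild-type hearts 0 of 7 were apart (4.74%). The counts for Adm2 and Calcr follow from the choice of genes.

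**Figure D3:**
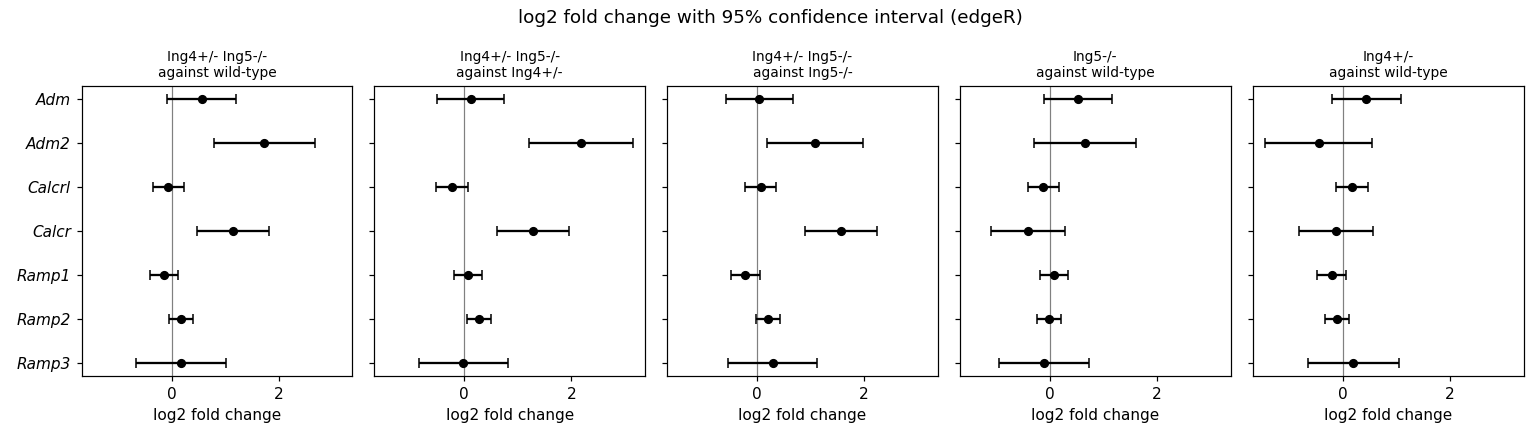
Log2 fold change of each of the 7 genes in the 5 comparisons of genotypes, with bars for the 95% interval from edgeR. In the 3 comparisons of Ing4+/- Ing5-/- hearts the intervals of the 5 genes not chosen for their change include 0, except Ramp2 against Ing4+/- hearts. Adm2 and Calcr were chosen for their change, so the place of their intervals is no test.

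Of the 5 genes not chosen for their values, 0 was called in any of the 6 comparisons in edgeR, and 0 in DESeq2 or limma-voom. At an unadjusted p under 0.05, 1 of the 5 passed in edgeR, Ramp2 for Ing4+/- Ing5-/- against Ing4+/- hearts. In each other comparison 0 passed. Of all 15785 genes tested, 2196 passed that threshold between Ing4+/- Ing5-/- and Ing4+/- hearts, so nothing is read from this 1 gene. The share of all genes called was 0.0127% for Ing5-/- against wild-type hearts, 0.00634% for Ing4+/- Ing5-/- against Ing5-/- hearts and 0.0% for Ing4+/- against wild-type hearts and for the interaction. A lack of calls for these genes therefore says little in those 4 comparisons.

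The genes around the receptors were read from pathway lists. Over all 15785 genes tested, 1793 and 2196 passed an unadjusted p under 0.05 for Ing4+/- Ing5-/- against wild-type and Ing4+/- hearts. DESeq2 called 325 and 486 of 15784 genes in these comparisons. Of 11 genes for peptide processing, accessory proteins and clearance, among them the amidating enzyme Pam and the scavenger receptor Ackr3, 9 were tested and 0 was called in Ing4+/- Ing5-/- hearts against wild-type or Ing4+/- hearts (edgeR; 1 of 9 at an unadjusted p under 0.05 in each, and 0 called in DESeq2 and limma-voom). The median log2 fold change was -0.01 in both. Of 29 genes of Gs and cyclic AMP signalling, such as Gnas, the adenylyl cyclases and the protein kinase A subunits, 0 was called in either comparison (edgeR; 3 and 4 of 29 at an unadjusted p under 0.05). The medians were -0.0041 and -0.07, against 0.0027 and -0.0013 over all genes tested. DESeq2 called 1 of these, Pde3b, a phosphodiesterase that breaks down cyclic AMP, in Ing4+/- Ing5-/- against Ing4+/- hearts, and limma-voom 0. Of 6 tested receptors of the same class B family, 0 was called in either comparison (edgeR; 1 and 0 at an unadjusted p under 0.05).

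Genes that respond to low oxygen are a list often read beside Adm. The list was chosen with earlier results of these data known, so its counts and p-values are a description. In Ing4+/- Ing5-/- hearts 6 of 15 rose against wild-type hearts and 8 of 15 against Ing4+/- hearts, and none fell. Of all genes tested, 0.855% and 1.16% were called in these comparisons. The median log2 fold change was 0.49 in both, against 0.00 over all genes tested. Egln3, a prolyl hydroxylase that marks hypoxia-inducible factors for breakdown, stood at 26.8 ± 3.30 CPM in Ing4+/- Ing5-/-, 11.7 ± 1.35 in Ing4+/-, 18.9 ± 4.36 in Ing5-/- and 11.8 ± 1.33 in wild-type hearts (log2 fold change against wild type 1.18 ± 0.14, edgeR adjusted p = 0.000273). Vegfa, the main growth factor of blood vessels, rose by 0.98 ± 0.12 on the same scale (0.000524). The glycolytic enzyme Pgk1 rose by 0.56 ± 0.11 (0.0183) and P4ha1, a collagen prolyl hydroxylase, by 0.46 ± 0.10 (0.0325). With litter as a block, 1 of 15 was called against wild-type hearts, Egln3, and 4 of 15 against Ing4+/- hearts. Without the 3 hearts that stood apart, 9 of 15 were called in each of these comparisons. Of all 15785 genes, 15 and 78 were called with litter as a block, and 313 and 200 without the 3 hearts. Macrophage genes rose in the same hearts, as given above, and their part in the hypoxia list was not tested. Of all 15785 genes, 1514 passed an unadjusted p under 0.05 for Ing5-/- against wild-type hearts, and 746 for Ing4+/- against wild-type hearts. For Ing5-/- against wild-type hearts, DESeq2 called 43 of 15784 genes, and edgeR without the 3 hearts called 4. In Ing5-/- against wild-type hearts 0 of 15 was called (edgeR; 9 at an unadjusted p under 0.05, 3 called by DESeq2, and 1 in edgeR without the 3 hearts that stood apart), with a median of 0.37, and in Ing4+/- against wild-type hearts 0 was called (0 unadjusted), with a median of -0.01.

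The genes whose level ran most like that of Adm2 over the 16 hearts were Rinl, Ndufa4l2, Phf10, Selenbp1 and Stc2, with Pearson's r of log2 CPM between 0.858 and 0.896 among 12833 genes ranked. Egln3 had r = 0.783 and Vegfa r = 0.761 with Adm2. Adm itself had r = 0.089 with Adm2, at rank 4848, and Calcr r = 0.291. For Calcr the most similar genes were Hs3st4, Foxc2, Nrarp, Plscr3 and Bhlhe41, with r between 0.826 and 0.873. The points share the genotype groups, litters and library depth, so these values are a description.

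**Figure D4:**
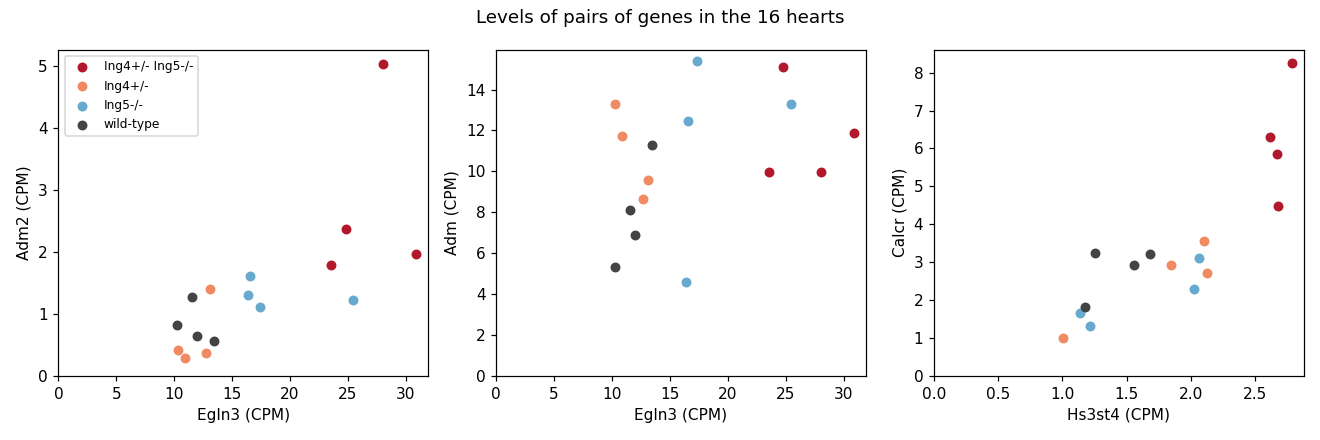
Levels of pairs of genes in CPM, with a point for each of the 16 hearts coloured by genotype: Adm2 against Egln3, Adm against Egln3, and Calcr against Hs3st4. The Ing4+/- Ing5-/- hearts lie at the upper right for Adm2 and for Calcr, while for Adm they lie at heights also reached by other genotypes. Ing5-/- heart 3, at 25.5 CPM of Egln3, lies within their range on that axis. Hs3st4 is shown because it ran most like Calcr in these hearts, so the Calcr panel is a description.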

How the data were processed

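Total RNA of 16 mouse embryonic hearts had been made into stranded sequencing libraries, per the labels' protocols. The authors deposited raw counts of reads per gene, with a length in bases for each gene (other). The 16 tables of single hearts held the same values as the table of all hearts. Per the submitters' processing notes, the tools were bcl2fastq and featureCounts, on build mm10. The aligner, annotation, counting strand and tool versions are not stated there. Reads may therefore be shared with overlapping genes: Gm28863 with Adm, Gm33576, Mir489 and Mir653 with Calcr, and Gm11978 with Ramp3. Of 27179 gene IDs, 25275 had a symbol.

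The software was edgeR 4.0.16, DESeq2 1.42.0 and limma 3.58.1, run in R 4.3.3. The filter on low counts kept 15785 genes and removed 11394. An edgeR quasi-likelihood model with a mean for each of the 4 genotypes used all 16 libraries (TMM scaling, factors 0.967 to 1.08, biological coefficient of variation 0.159). It gave 5 comparisons between genotypes and the interaction, with two-sided p-values. A gene was called where its p, adjusted by Benjamini-Hochberg over the whole table, was under 0.05. SEs were derived from the F statistic. CPM used TMM-scaled library sizes, RPKM also the deposited length. Within-litter differences are of log2 CPM with a prior count of 2. Replicates are separate embryos.

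The genes and all lists were chosen with earlier results of these data known. Named genes were the 7 genes, Ing4, Ing5, up to 4 called genes of each pathway list by adjusted p, and the 5 genes of at least 1 CPM most like Adm2 and Calcr by Pearson's r. Genes outside this rule, such as Pde3b and Calca, were named after their values were seen. Alternatives were DESeq2 size factors, no filter, the DESeq2 Wald test, limma-voom, only the groups compared, litter or replicate number as a block, 3 libraries left out, and each library left out in turn. The pipeline was tested on simulated data.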

Additional observations from a re-analysis of the deposited data

Results flagged for a closer look

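Among 28 groups of 4 hearts, 7 genes in each of 4 genotypes, 2 held a heart far from the other 3, and chance marks about 1 in 20 such groups. Adm2 stood at 1.39 CPM in Ing4+/- heart 4, against 0.289 to 0.414 CPM in the other Ing4+/- hearts, a gap of 0.888 of the group's range, above the critical value of Dixon's test for 4 samples. That heart was also the farthest on the first principal component and had the lowest Calcr, 1.00 CPM. Ramp1 stood at 14.8 CPM in Ing5-/- heart 4, against 23.0 to 24.1 CPM in the other Ing5-/- hearts, a gap of 0.881 of the range. No difference between genotype effects was found by the interaction for the 5 genes not chosen for their values.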

How the results depend on the processing

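Adm2 and Calcr were chosen for their change, so their calls are no test. The call of Adm2 in Ing4+/- Ing5-/- against Ing4+/- hearts was lost with litter as a block (log2 fold change 2.17) and without Ing4+/- Ing5-/- 2 (1.73), Ing4+/- 1 (2.03), Ing4+/- 2 (1.94) or Ing4+/- 3 (2.01). Against wild-type hearts, where neither gene was called in the main fit, both were with only the groups compared, with 3 libraries left out and with DESeq2. The 5 other genes were called in none of the alternatives and in no fit without a library. In their direction, Adm2 and Calcr kept a higher level in Ing4+/- Ing5-/- hearts in all alternatives. For both genes these hearts lay above all 12 others, so the kept direction follows from the choice of genes and is no support. Without a library, the log2 fold change of Adm2 ran from 1.73 to 2.94 against Ing4+/- hearts, 1.29 to 2.03 against wild-type, 0.63 to 1.24 against Ing5-/-, and -1.21 to -0.15 for Ing4+/- against wild-type hearts, and that of Calcr for Ing4+/- against wild-type hearts from -0.33 to 0.14. The interaction of Adm2 ran from 1.08 to 2.28. With 3 libraries left out, Adm2 had 0.55 against Ing5-/- hearts and -1.21 for Ing4+/- against wild-type hearts. With the litter block, Calcr had 1.11 against Ing5-/- hearts. For Ing5-/- against wild-type hearts it had 0.27 with that block and -0.41 in the main fit, so its direction reversed.

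Among the 5 other genes, small changes near 0 turned sign. With the litter block these were Ramp1 (-0.0072) and Ramp2 (0.116) in Ing5-/- against wild-type hearts, Calcrl (-0.0811) in Ing4+/- against wild-type hearts, and Calcrl (0.129), Ramp1 (0.038) and Ramp3 (-0.0343) in the interaction. With 3 libraries left out they were Ramp3 (0.0211) in Ing4+/- Ing5-/- against Ing4+/- hearts, Ramp2 (0.0748) in Ing5-/- against wild-type hearts and Ramp1 (0.0105) in the interaction. With limma-voom they were Ramp3 (0.0731) in Ing4+/- Ing5-/- against Ing4+/- hearts and Ramp1 (0.0318) in the interaction. Replicate numbers did not pair the hearts: residuals correlated above 0.1 in 5 of 24 same-number pairs (median 0.020) and in 3 of 11 same-litter pairs (median 0.024). With the replicate block, Ramp1 had 0.0107 in the interaction, 0 genes were called for Ing5-/- against wild-type hearts, and 128 and 189 genes for Ing4+/- Ing5-/- against wild-type and Ing4+/- hearts. Without a library, ranges that included 0 were -0.198 to 0.0263 for Calcrl in Ing4+/- Ing5-/- against wild-type hearts. Against Ing4+/- hearts they were -0.028 to 0.233 for Adm, -0.0107 to 0.12 for Ramp1 and -0.18 to 0.34 for Ramp3, and against Ing5-/- hearts -0.226 to 0.214 for Adm and -0.0739 to 0.162 for Calcrl. In Ing5-/- against wild-type hearts they were -0.113 to 0.0749 for Ramp2 and -0.263 to 0.0731 for Ramp3, in Ing4+/- against wild-type hearts -0.16 to 0.36 for Ramp3, and in the interaction -0.157 to 0.0533 for Ramp1 and -0.0903 to 0.451 for Ramp3. The cause was not tested.

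Counts of all genes called moved more. For Ing4+/- Ing5-/- against wild-type hearts, 135 in the main fit, they were 487 with only the groups compared, 15 with the litter block, 313 with 3 libraries left out, 78 with limma-voom, 325 with DESeq2 and 38 to 315 without a library. Against Ing4+/- hearts, 183 in the main fit, they were 280, 78 and 486 with only the groups compared, the litter block and DESeq2, and 67 to 448 without a library. For Ing5-/- against wild-type hearts, 2 in the main fit, they were 0 with only the groups compared, the litter block, and limma-voom, 4 with 3 libraries left out, 43 with DESeq2 and 0 to 15 without a library. For Ing4+/- against wild-type hearts, 0 in the main fit, they were 2, 5 and 5 with only the groups compared, 3 libraries left out and DESeq2, and 0 to 1 without a library. Against Ing5-/- hearts, 1 in the main fit, they were 0 with only the groups compared and with the litter block, 19 with DESeq2 and 1 to 3 without a library. For the interaction, 0 in the main fit, they were 7 with DESeq2 and 0 to 2 without a library. Depth limits Ramp3 and Adm2 most, at 9 to 31 and 8 to 121 reads in a heart.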
